A study of Mus musculus with 20 samples.

Results

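The genes described here build, anchor and cut the extracellular matrix: collagens, laminins, fibrillins, fibulins, thrombospondins, integrins, matrix metalloproteinases (Mmp), their tissue inhibitors (Timp) and the Adamts proteases. They were chosen by gene symbol (Col, Lama, Lamb, Lamc, Fbn, Fbln, Thbs, Mmp, Timp, Itga, Itgb or Adamts at the start), on probes that list a single gene. The rule found 93 of the 10843 genes named on such probes, and 90 of them entered the tests. Col4a5, Col9a2 and Itga2 had too few values and were left out of every count. The symbol rule also took in Itgb1bp1, Itgb1bp2 and Itgb3bp, which are proteins named after the integrins they bind and are not integrins. It likewise took in the Adamts-like genes Adamtsl1 and Adamtsl5, which are counted with the Adamts genes below.

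Transcripts were measured on 20 two-colour arrays in mouse fibroblasts carrying heat shock factor 1 (HSF1 +/+, called WT here) and in fibroblasts lacking it (HSF1 -/-, called KO here). HSF1 is the transcription factor that induces chaperone genes in heat-shocked cells. Each genotype was measured on 3 arrays without heat shock (0 h). The heat shock series added 1 array per genotype for 0.5, 1, 2, 3, 4, 6 and 8 h. Every array compared its sample with the same pool of RNA from heated and unheated mouse fibroblasts. The labels do not tell whether heating was continuous or followed by recovery, nor whether the 3 unheated arrays are separate cultures. The p-values therefore cover only array-to-array spread, which may be technical. All comparisons share a single estimate of that spread over the 20 arrays, and within the heated windows it includes change over time. Genotype cannot be told apart from any other difference between the fibroblast lines, and no probe listing a single gene named Hsf1 was found, so the deletion itself was not checked here.

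Matrix genes differ in what their products do. Fibrillar collagens give tissue its tensile strength, and type IV collagen and laminins form the sheet-like basement membrane. Integrins are paired alpha and beta chains in the cell membrane that hold cells to these proteins. Metalloproteinases and Adamts enzymes cut the matrix or trim its precursors, and Timp proteins block them. Fibroblasts are the main makers of interstitial matrix.

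A value below is the log2 ratio of a gene to the pool, centred on the median of its array, averaged over the gene's probes and given relative to the gene's own mean over the 20 arrays. A difference is KO minus WT, or heated minus 0 h, with the SE of the limma fit, and a gene was called when its p adjusted over all 10625 genes was under 0.05. The base of the deposited logarithm is not stated. It was read as base 2, and folds would be too small if it were the natural base. The arrays held 39037 to 42220 values each, and their number limits the precision. In RNA from whole cultures, fewer cells of a type and less RNA per cell cannot be told apart. Of the 90 genes, 47 rested on a single probe, and probes of closely related family members can bind each other's transcripts.

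Matrix genes differed between the genotypes before any heat and in the heated cells, in both directions. At 0 h, 12 of the 90 genes were called (13.3%), against 6.64% of all genes tested. Of these, 7 were higher in KO (3.04% of all genes were) and 5 were lower (3.60%). Over the 7 heated arrays of each genotype, 26 of the 90 were called (28.9%), against 10.3% of all genes, with 13 higher (4.19% of all genes) and 13 lower (6.07%) in KO. The medians over the 90 genes were 0.02 at 0 h and 0.05 in heated cells, beside 0.05 and 0.02 over all genes tested. The 0 h and the heated comparison use different arrays. All 12 genes called at 0 h were also called in the heated cells with the same sign. Over all genes, 452 of the 705 called at 0 h and of the 1090 called in heated cells were shared, all 452 with the same sign. Of the 26 heated calls, 19 kept their direction at all 7 times.

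**Figure D1:**
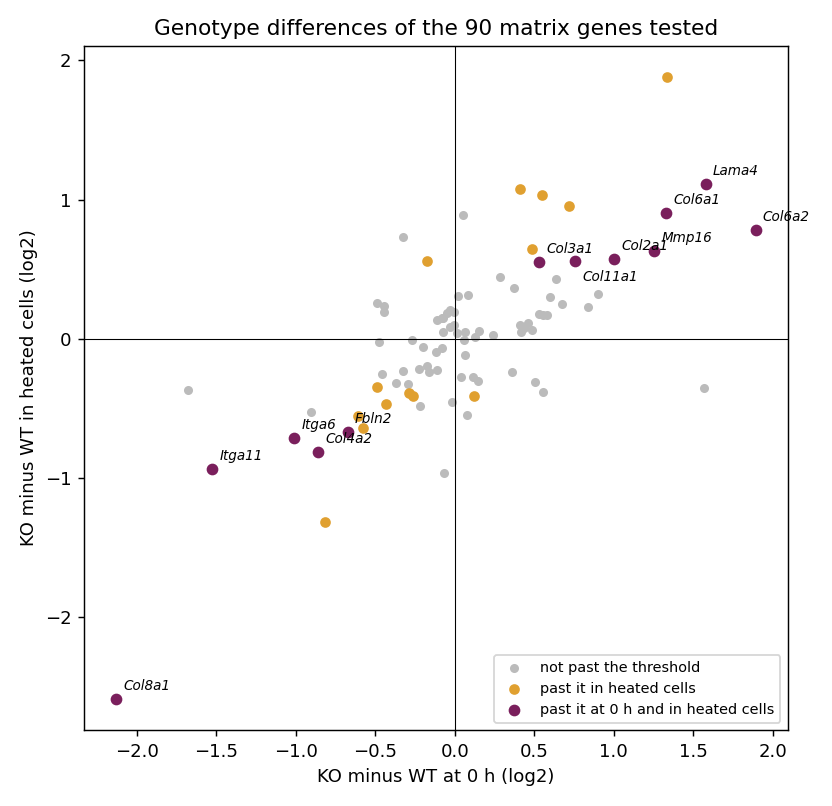
Log2 difference KO minus WT at 0 h (horizontal axis, 3 arrays per genotype) against the difference over the heated arrays (vertical axis, 7 per genotype) for the 90 genes, with the 12 called in both in purple, the 14 called in heated cells alone in orange and the rest in grey. Col6a1, Col6a2 and Lama4 lie far out on the positive side of both axes and Col8a1 far out on the negative side, at -2.13 and -2.59, while most genes lie near the origin.

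The arrays themselves separated some genes completely. At 0 h, the 3 KO arrays did not overlap the 3 WT arrays for 26 of the 90 genes (28.9%), beside 25.1% of all genes, so this count stands close to the background. In the heated cells, the 7 KO arrays did not overlap the 7 WT arrays for 10 genes (11.1%), beside 3.55% of all genes. The 7 higher in KO (1.42% of all genes) were Adamts3, Col3a1, Col6a1, Col6a2, Fbn2, Lama4 and Timp3. The 3 lower in KO (2.13% of all genes) were Col8a1, Fbln2 and Itga6. For 8 of the 10 the arrays were also separate at 0 h in the same direction, and the other two, Adamts3 and Fbn2, overlapped there. Separate arrays in both comparisons in the same direction were thus seen for 8.89% of the 90 genes and 2.89% of all genes. Of the 377 genes of the whole table that were separate in heated cells, 307 were also separate at 0 h.

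**Figure D2:**
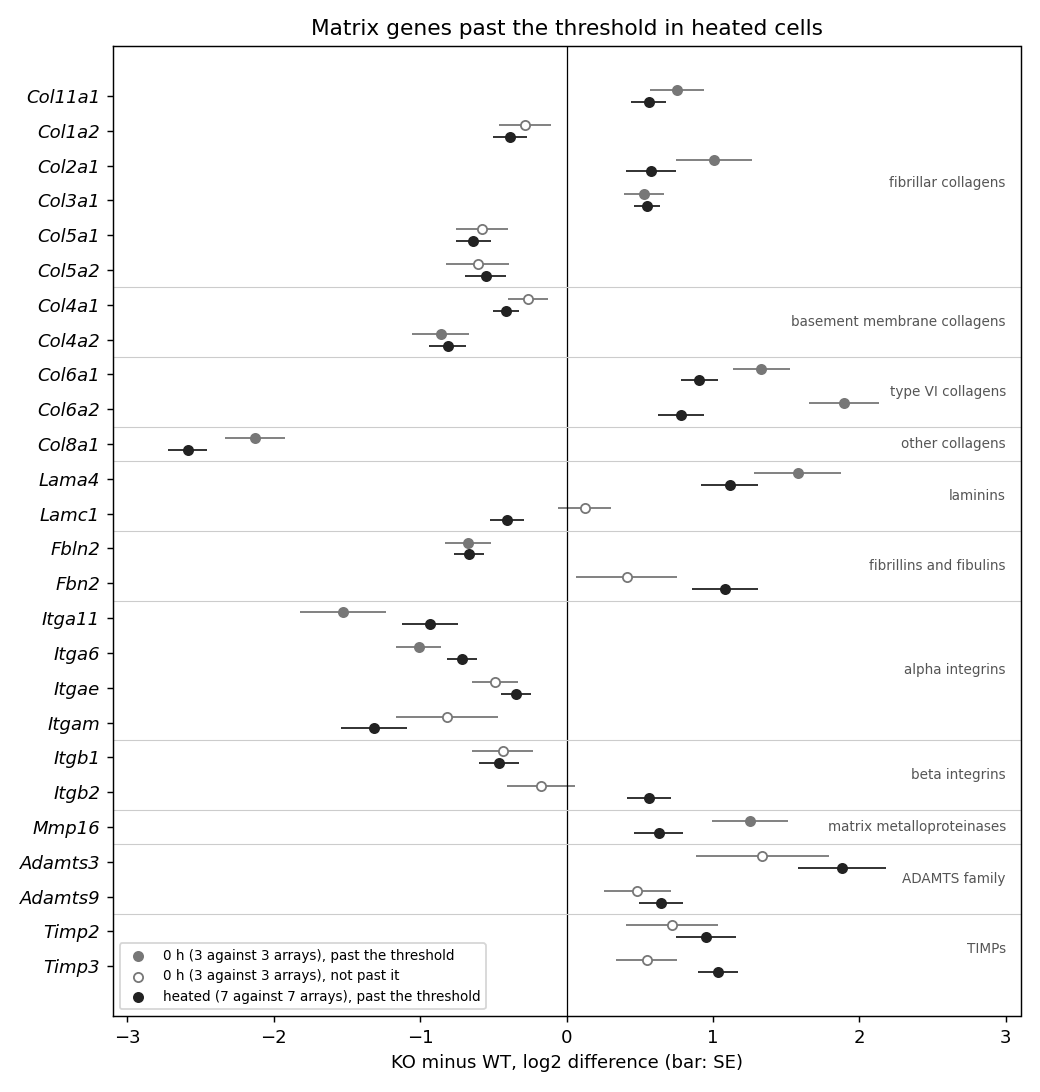
Log2 difference KO minus WT for the 26 genes called in heated cells, grouped by family, at 0 h (grey points, filled where called and open where not) and over the heated arrays (black points). Bars are the SE of the limma fit. Col8a1 stands at the negative end at 0 h and when heated, and the 4 alpha integrins lie below 0 in both comparisons.

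Of 5 chains of type VI collagen, a beaded microfibril that links cells to the interstitial matrix, 2 were higher in KO at 0 h and in heated cells. These were Col6a1 and Col6a2, the genes of the alpha1 and alpha2 chains, which lie next to each other on chromosome 10 in the same orientation with no other coding gene between them. The 250 bases before the RefSeq start of each (assembly GRCm38.p6, minus strand) are given because these neighbours differed together. The capitals mark TGANTCA, the letters that the AP-1 factors bind, 90 to 84 bases before the Col6a1 start.
Col6a1 (chr10:76726045-76726294): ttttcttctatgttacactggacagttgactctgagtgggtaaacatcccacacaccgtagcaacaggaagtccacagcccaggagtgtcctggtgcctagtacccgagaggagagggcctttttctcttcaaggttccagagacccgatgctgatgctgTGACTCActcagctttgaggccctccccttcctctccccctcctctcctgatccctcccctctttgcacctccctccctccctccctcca
Col6a2 (chr10:76623631-76623880): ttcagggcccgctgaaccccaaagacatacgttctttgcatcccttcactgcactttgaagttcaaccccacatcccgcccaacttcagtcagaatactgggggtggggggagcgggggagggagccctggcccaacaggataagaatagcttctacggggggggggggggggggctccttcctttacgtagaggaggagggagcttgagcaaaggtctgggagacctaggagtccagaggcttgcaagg
No TGANTCA was found in this Col6a2 window, which precedes 1 of the RefSeq starts listed for the gene. The window before another listed start (chr10:76623405-76623654) held none either.

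At 0 h, Col6a1 stood at -0.72, -0.62 and -0.54 on the WT arrays and at 0.71, 0.62 and 0.77 on the KO arrays. The heated WT arrays ran from -0.87 through a median of -0.50 to -0.08, and the heated KO arrays from -0.06 through 0.56 to 0.70. The genotypes did not overlap, but they came within 0.02 of each other at 3 h. Col6a1 was thus 1.33 ± 0.19 higher in KO at 0 h (2.51-fold, adjusted p = 4.62e-04) and 0.91 ± 0.13 higher in heated cells (adjusted p = 1.34e-04). Its 3 probes gave 1.31 to 1.43 at 0 h and 0.80 to 0.99 in heated cells.

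Col6a2 stood at -0.62, -0.67 and -1.72 in WT and 1.06, 0.62 and 0.98 in KO at 0 h. Replicate 3 of WT lay well below the other two. When heated, WT ran from -0.58 through -0.39 to -0.15 and KO from 0.07 through 0.40 to 0.75. The difference was 1.89 ± 0.24 at 0 h (3.71-fold, adjusted p = 1.4e-04) and 0.78 ± 0.16 in heated cells (adjusted p = 0.00327), from 1 probe. Of the other type VI chains, Col6a3 was 0.64 ± 0.23 higher at 0 h (adjusted p = 0.113) and 0.43 ± 0.15 in heated cells (adjusted p = 0.0884), and neither passed. Col6a4 and Col6a5 lay between -0.07 and 0.15 in both comparisons.

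Col8a1, the alpha1 chain of the short-chain, network-forming type VIII collagen, had the most negative difference of the 90 genes in both comparisons. The window before its RefSeq start (chr16:57754738-57754987, GRCm38.p6, minus strand) is given because of that difference, and it held neither TGANTCA nor a heat shock element as defined below.
Col8a1 (chr16:57754738-57754987): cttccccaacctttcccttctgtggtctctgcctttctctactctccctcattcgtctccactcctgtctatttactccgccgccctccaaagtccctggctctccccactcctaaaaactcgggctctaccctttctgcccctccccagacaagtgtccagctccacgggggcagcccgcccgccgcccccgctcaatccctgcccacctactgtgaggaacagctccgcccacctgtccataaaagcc

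Without heat, Col8a1 was at 1.60, 1.35 and 1.62 in WT and at -0.55, -0.68 and -0.58 in KO. The heated WT arrays ran from 0.47 through 1.11 to 1.82, and the heated KO arrays from -2.02 through -1.48 to -0.91. Every WT array lay above every KO array by a wide margin. The difference was -2.13 ± 0.20 at 0 h (4.38-fold lower in KO, adjusted p = 1.11e-05) and -2.59 ± 0.13 in heated cells (6.01-fold lower, adjusted p = 1.68e-09). It rested on 1 probe and was kept with any 1 array left out and under all alternative settings. The other collagens of that family group, Col15a1, Col18a1 and Col26a1, were not called.

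**Figure D3:**
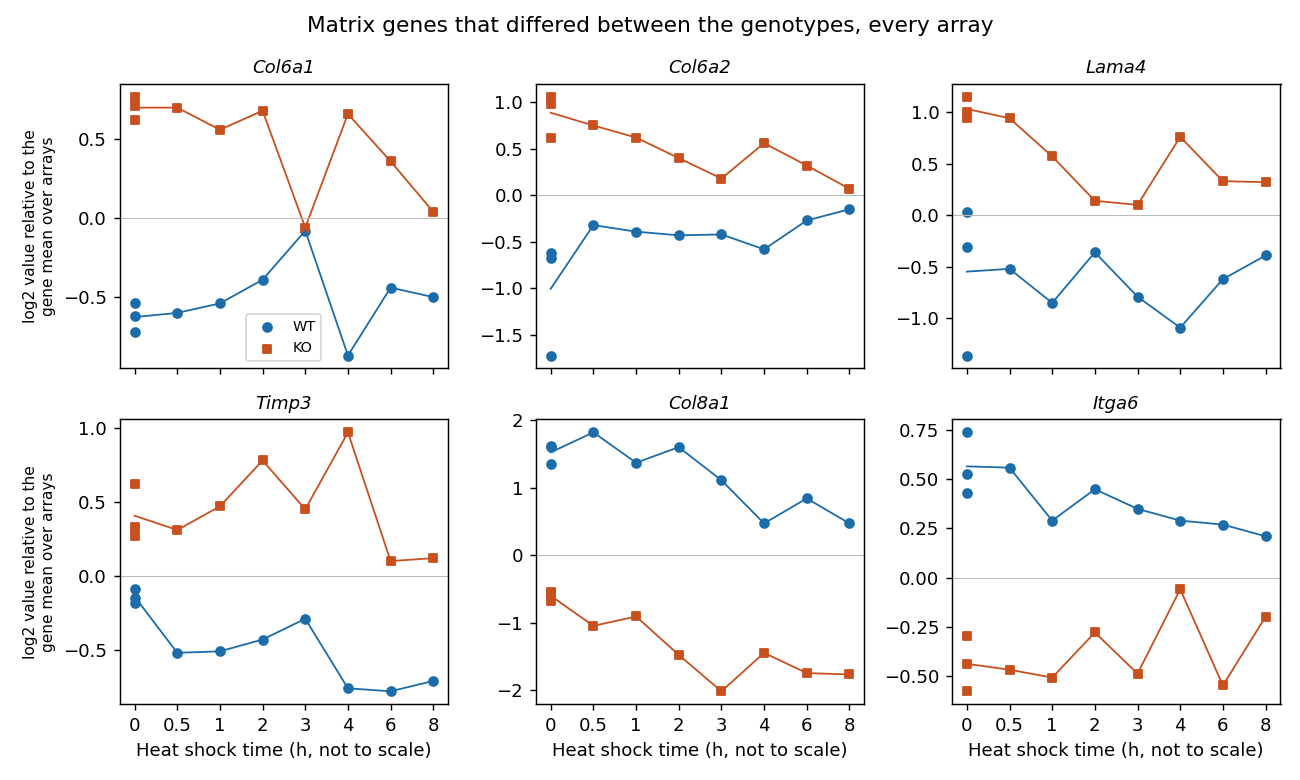
Value on every array (log2, relative to the gene's mean over the 20 arrays) for 6 genes, against time of the heat shock series on an axis not drawn to scale, WT and KO in separate symbols. Lines join the values, starting at the mean of the 3 arrays at 0 h. The genotypes lie apart at all times for Col8a1, Col6a2, Lama4, Timp3 and Itga6, and Col6a1 nearly meets at 3 h.

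Fibrillar collagens split by chain rather than moving as a class. Of 10 tested, 3 were higher in KO and none was lower at 0 h, and 3 were higher and 3 lower in heated cells. Col3a1, which forms fibrils with type I collagen in elastic tissue, was at -0.20, -0.03 and -0.07 in WT and at 0.52, 0.53 and 0.24 in KO at 0 h. In heated cells WT ran from -0.48 through -0.39 to -0.15 and KO from -0.05 through 0.27 to 0.36, with no overlap. It was 0.53 ± 0.14 higher at 0 h (adjusted p = 0.0265) and 0.55 ± 0.09 higher when heated (adjusted p = 5.38e-04). Its 6 probes gave -0.19 to 0.99 in heated cells, so they disagreed in sign. Col5a2, its direct neighbour on chromosome 1 with no coding gene between them, lay on the other side, at -0.55 ± 0.14 in heated cells (adjusted p = 0.0177).

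Col5a2 encodes a chain of type V collagen, which seeds fibrils and limits their width. Its heated arrays overlapped, from -0.39 through 0.31 to 0.66 in WT and from -0.63 through -0.29 to 0.24 in KO. The call rests on 1 of its 3 probes, which gave -1.49 to 0.32. Without the WT array at 1 h or at 2 h that probe drops out, and the difference becomes -0.10 (adjusted p = 0.831) or -0.16 (adjusted p = 0.7). Col5a1, the partner chain, was at 0.53, 0.18 and 0.53 in WT and -0.01, -0.34 and -0.14 in KO at 0 h, a difference of -0.58 ± 0.18 that missed the threshold (adjusted p = 0.0634). In heated cells it was -0.64 ± 0.12 (adjusted p = 0.00155), lower in KO at all 7 times, and its 3 probes gave -0.71 to -0.56.

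Col2a1 and Col11a1, chains of the fibrils typical of cartilage, were higher in KO. Col11a1 stood at -0.29, -0.39 and 0.11 in WT and 0.65, 0.39 and 0.65 in KO at 0 h. The difference was 0.75 ± 0.18 (adjusted p = 0.0171), and 0.56 ± 0.12 in heated cells (adjusted p = 0.00511), where it lay between 0.38 and 0.70 at every time. Col2a1 was at -0.67, -0.24 and -0.16 in WT and 0.84, 0.21 and 0.89 in KO, a difference of 1.00 ± 0.26 at 0 h (adjusted p = 0.0257) and 0.57 ± 0.17 in heated cells (adjusted p = 0.0392). Its 3 probes gave 0.08 to 1.70 at 0 h and 0.17 to 0.87 in heated cells. At 0 h, the call of Col2a1 was lost without KO replicate 1 or 3 or WT replicate 1 (adjusted p up to 0.112). That of Col3a1 was lost without KO replicate 1 or 2 or WT replicate 3 (up to 0.0985), and that of Col11a1 without KO replicate 1 or 3 or WT replicate 1 or 2 (up to 0.0687). The heated call of Col2a1 was lost without any 1 of 8 arrays (adjusted p up to 0.088).

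Type I collagen, the most abundant fibrillar collagen of the body, gave 1 call. Col1a2 ran from -0.14 through 0.02 to 0.42 in heated WT and from -0.78 through -0.30 to 0.18 in heated KO. The ranges overlapped, and the difference of -0.39 ± 0.12 (adjusted p = 0.0421) was lost without any 1 of 10 arrays (adjusted p up to 0.102). Col1a1 was not called, at -0.46 at 0 h (adjusted p = 0.17) and -0.25 in heated cells (adjusted p = 0.241).

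The genes of basement membrane collagen were lower in KO. Col4a1 and Col4a2 encode the alpha1 and alpha2 chains that wind together into type IV collagen, and they start head to head on chromosome 8. Col4a2 was at 0.69, 0.68 and 0.46 in WT and at -0.15, -0.37 and -0.24 in KO at 0 h, and its 0 h arrays did not overlap. The difference was -0.86 ± 0.19 (adjusted p = 0.0111) at 0 h and -0.81 ± 0.13 (adjusted p = 3.41e-04) in heated cells. Its 2 probes gave -0.82 and -0.80 in heated cells. Col4a1 was called in heated cells alone, at -0.41 ± 0.09 (adjusted p = 0.00589), and its 4 probes gave -1.05 to 0.07. At 0 h it stood at -0.26, and whether the gap differs between 0 h and the heat was tested only within the response contrasts given below, which called neither gene. The FACIT collagens, which decorate fibrils, had no call in either comparison among 6 tested. The nearest were Col14a1 at 0 h (0.49 ± 0.15, adjusted p = 0.0632) and Col12a1 in heated cells (-0.31 ± 0.10, adjusted p = 0.0575).

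Among 7 laminins, Lama4 stood out. It encodes the alpha4 chain found in laminins of vessels, muscle and fat. At 0 h it was at -0.31, 0.03 and -1.36 in WT and at 1.15, 0.94 and 1.00 in KO, with WT replicate 3 far below the other two. The heated arrays ran from -1.09 through -0.62 to -0.36 in WT and from 0.10 through 0.33 to 0.94 in KO, without overlap. Lama4 was 1.58 ± 0.30 higher in KO at 0 h (2.98-fold, adjusted p = 0.00316) and 1.11 ± 0.19 in heated cells (adjusted p = 9.22e-04), from 1 probe. Lamc1, the gamma1 chain shared by most laminins, was 0.12 higher in KO at 0 h and -0.41 ± 0.12 in heated cells (adjusted p = 0.0359). That call was lost without any 1 of 9 arrays (adjusted p up to 0.0828). Lama1, Lama3, Lama5, Lamb1 and Lamb2 were not called between the genotypes.

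Fibulins and fibrillins, which assemble elastic and microfibrillar networks, went both ways. Fbln2 was at 0.61, 0.48 and 0.14 in WT and -0.22, -0.41 and -0.16 in KO at 0 h. Heated WT ran from 0.16 through 0.24 to 0.55 and heated KO from -0.58 through -0.38 to -0.10. The difference was -0.67 ± 0.16 at 0 h (adjusted p = 0.0133) and -0.67 ± 0.10 in heated cells (adjusted p = 2.77e-04), and its 2 probes gave -1.26 and -0.08. The 0 h call was lost without WT replicate 1 (adjusted p = 0.0573) or KO replicate 2 (adjusted p = 0.0614). Fbn2, a fibrillin of developing tissue, was called in heated cells at 1.08 ± 0.23 (adjusted p = 0.00446). There WT ran from -1.02 through -0.62 to -0.28 and KO from 0.00 through 0.34 to 0.90, while at 0 h WT replicate 3 at 1.13 lay above all 3 KO arrays.

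The alpha integrins, the receptor chains that choose the ligand, were lower in KO where they were called. Of 12 tested, 2 were lower at 0 h and 4 in heated cells, and none was higher. Itga6, a laminin receptor chain, was at 0.43, 0.53 and 0.74 in WT and at -0.58, -0.30 and -0.44 in KO at 0 h. The heated arrays ran from 0.21 through 0.29 to 0.56 in WT and from -0.55 through -0.47 to -0.06 in KO, apart at every time. The difference was -1.01 ± 0.15 at 0 h (adjusted p = 6.6e-04) and -0.71 ± 0.10 in heated cells (adjusted p = 1.42e-04). Its size depends on the probes. The 3 gave -1.63 to -0.49 at 0 h and -1.27 to -0.22 in heated cells, and with 1 probe per gene Itga6 was at -0.49 (adjusted p = 0.294) and -0.22 (adjusted p = 0.485).

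Itga11, the collagen-binding chain typical of fibroblasts, stood at 0.44, 1.06 and 0.96 in WT and -0.78, -0.45 and -0.88 in KO at 0 h. The difference was -1.53 ± 0.29 (2.88-fold lower in KO, adjusted p = 0.00387), and -0.93 ± 0.19 in heated cells (adjusted p = 0.00417), where WT stood at 1.35 at 0.5 h and -0.14 at 8 h and the ranges of the genotypes overlapped. Itgam, the alpha chain of a receptor of myeloid cells, was at 0.05, -0.04 and 0.92 in WT and -0.46, -0.20 and -0.86 in KO at 0 h (-0.82, not called). In heated cells WT ran from 0.23 through 0.61 to 1.58 and KO from -1.10 through -0.58 to 0.31, a difference of -1.32 ± 0.23 (adjusted p = 8.64e-04) from 1 probe. Of 8 macrophage markers tested, 2 were lower in KO at 0 h (Cd68 at -0.83 and Fcgr1 at -1.13) and 1 in heated cells (Cd68 at -0.51). None was called higher, but 4 of the 8 lay above 0 in each comparison, with medians of -0.06 and -0.08. The mean of that list overlapped between WT and KO at 0 h (0.06 to 0.15 and -0.24 to 0.34) and early (-0.17 to 0.02 and -0.11 to 0.13). It ran from -0.01 to 0.07 on late WT arrays and from -0.17 to -0.06 on late KO arrays, and its part in the Itgam difference was not tested.

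Itgae, which pairs with beta7 on lymphocytes, was at -0.34 ± 0.10 in heated cells (adjusted p = 0.0392), a call lost without any 1 of 9 arrays (adjusted p up to 0.0869). Its 2 probes gave -0.62 and -0.07 in heated cells. The beta integrins gave no call at 0 h among 7 tested. Itgb1, the partner of most matrix-binding alpha chains, was at -0.46 ± 0.14 in heated cells (adjusted p = 0.0374), a call lost without any 1 of 11 arrays (adjusted p up to 0.0852). Itgb2, the beta chain of leukocyte integrins, was higher in heated KO cells, by 0.56 ± 0.15 (adjusted p = 0.0232), from WT values of -0.46 to 0.06 and KO values of -0.23 to 0.93. The call was lost without KO at 2 h (adjusted p = 0.0517) or 3 h (0.0537) and without WT at 0.5 h (0.0557) or 6 h (0.0527). Itgav was at -0.52 ± 0.39 in heated cells and was not called.

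Matrix proteases differed in few genes. Among 13 metalloproteinases, Mmp16, a membrane-anchored enzyme, was the only call between the genotypes. It was at -0.15, -0.55 and -1.24 in WT and 0.29, 0.79 and 0.74 in KO at 0 h, 1.25 ± 0.26 higher in KO (2.39-fold, adjusted p = 0.00636). In heated cells it was 0.63 ± 0.17 higher (adjusted p = 0.024), and its 5 probes gave 0.54 to 0.69. The heated call was lost without KO at 0.5 h (adjusted p = 0.0547) or 6 h (0.0602) and without WT at 0.5 h (0.0611), 3 h (0.0509) or 6 h (0.0603), and with 1 probe per gene (0.113). Mmp14, the enzyme that activates pro-Mmp2 at the cell surface, was 0.60 ± 0.22 higher at 0 h (adjusted p = 0.118) and was not called. The secreted enzymes Mmp2, Mmp3, Mmp9 and Mmp13 lay between -0.19 and 0.15 in both comparisons. For Mmp2 this is the mean of 5 probes that disagreed, at -0.71 to 0.28 at 0 h and -0.62 to 0.03 in heated cells.

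Of 11 Adamts and Adamts-like genes, none was called at 0 h and 2 were higher in heated KO cells. Adamts3, which trims the amino-terminal propeptide of fibrillar procollagens, was at 1.45, -0.58 and -1.08 in WT and 1.91, 0.96 and 0.93 in KO at 0 h. The spread of WT was wide, and the difference of 1.34 ± 0.46 missed the threshold (adjusted p = 0.0918). In heated cells WT ran from -1.64 through -1.15 to -0.76 and KO from 0.12 through 0.66 to 1.21, 1.88 ± 0.30 apart (3.68-fold, adjusted p = 4.09e-04), from 1 probe. Adamts9, a protease that cuts large proteoglycans, was 0.64 ± 0.15 higher (adjusted p = 0.0101).

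The inhibitors of these proteases were higher in heated KO cells for 2 of the 3 measured. Timp3, the matrix-bound inhibitor, was at -0.15, -0.09 and -0.18 in WT and at 0.62, 0.33 and 0.27 in KO at 0 h. Those arrays did not overlap, but the difference of 0.55 ± 0.21 was not called (adjusted p = 0.135). The heated arrays ran from -0.78 through -0.52 to -0.29 in WT and from 0.10 through 0.45 to 0.97 in KO, 1.03 ± 0.14 apart (2.04-fold, adjusted p = 7.76e-05). Its 5 probes gave -0.43 to 1.64, so at least 1 probe lay on the other side. Timp2, the inhibitor that also helps to activate pro-Mmp2, was 0.95 ± 0.21 higher in heated cells (adjusted p = 0.00613), and KO exceeded WT by 0.41 to 1.84 at the 7 times. With a probe filter that asks for 1 value per group, Timp2 was at 0.63 (adjusted p = 0.32). Timp4 was not called.

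Among the 64 genes not called in heated cells, 59 had a difference within 0.5 of 0. The other 5 were Col11a2 (-0.55 ± 0.28), Col9a1 (-0.96 ± 0.82), Itgav, Mmp17 (0.73 ± 0.33) and Thbs2 (0.89 ± 0.43, adjusted p = 0.237), whose errors are wide. Thrombospondins, Thbs1 to Thbs3, had no call between the genotypes, and neither had the 3 integrin-binding proteins.

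Several measured facts stand beside these differences. Of 8 fibroblast markers tested, Pdgfra (1.36 at 0 h and 1.22 in heated cells) and Prrx1 (0.95 and 0.54) were higher in KO, and the mean of that list ran from -0.11 to 0.23 on the WT arrays at 0 h and from 0.35 to 0.47 on the KO arrays. In heated cells the genotypes overlapped, with WT and KO at -0.20 to 0.19 and -0.02 to 0.38 early, and -0.54 to -0.14 and -0.28 to 0.10 late. Of the 8 fibroblast markers, 7 had a KO minus WT difference above 0 at 0 h and 6 in heated cells. Their medians were 0.21 and 0.20, and the lowest lay at -0.96 and -0.52. Of 8 muscle markers, Cnn1 was lower in KO at 0 h (-1.45), and Cnn1 (-1.30), Acta2 (-0.89) and Acta1 (-0.83) in heated cells. None was called higher, but 4 of the 8 lay above 0 at 0 h and 2 in heated cells, with medians of 0.05 and -0.15. The muscle list overlapped at 0 h (WT 0.10 to 0.13, KO -0.26 to 0.12). It ran from 0.15 to 0.36 on early WT arrays and from -0.09 to 0.07 on early KO arrays, and from 0.01 to 0.33 on late WT arrays and from -0.48 to -0.19 on late KO arrays. Of 7 adipocyte markers none was called at 0 h, and 2 were higher in heated KO cells, Pparg (0.61) and Fabp4 (0.43). Differences above 0 were seen for 4 of the 7 at 0 h and 6 in heated cells, with medians of 0.14 and 0.32. That list ran from -0.43 to -0.13 in WT and -0.25 to -0.02 in KO at 0 h, from -0.28 to 0.02 and -0.02 to 0.16 early, and from -0.33 to 0.20 and 0.14 to 0.39 late. Of 11 epithelial markers 1 was called, Cldn3 in heated cells (-0.79), and of 7 endothelial markers none. In heated cells 6 of the 11 epithelial markers lay above 0 (median 0.02). The part of these markers in the matrix differences was not tested, and ratios to a pool do not tell whether a marker is present at all. Fitted to the 6 arrays at 0 h alone, 3 of the 12 calls there remained: Col6a1, Col8a1 and Itga11. With any 1 array left out, 8 of the 12 calls at 0 h and 18 of the 26 in heated cells were kept throughout. Under the alternative settings, 17 of the 26 heated calls were kept in all, and those lost in at least 1 were Col1a2, Col2a1, Col5a2, Itga6, Itgae, Itgb1, Lamc1, Mmp16 and Timp2.

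Genes that process, surround or signal to this matrix differed as well. Of 22 collagen-processing and crosslinking genes tested, none was called at 0 h, and 1 was higher and 4 were lower in heated KO cells. P4ha1 (-0.96 ± 0.14, adjusted p = 2.5e-04) and P4ha2 (-0.40) are the catalytic subunits of the prolyl hydroxylase that stabilises the collagen helix, and Ppib (-0.49) is a prolyl isomerase that helps it fold. Serpinh1 encodes HSP47, the collagen chaperone of the endoplasmic reticulum and a known heat shock gene. Without heat it was at -0.09, 0.13 and -0.35 in WT and at -0.02, -0.09 and -0.12 in KO, which overlapped (0.03 ± 0.20, adjusted p = 0.958). At 3, 4, 6 and 8 h it was at 0.63, 0.36, 0.68 and 0.41 in WT and at -0.34, -0.23, -0.64 and -0.24 in KO.

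The late WT arrays of Serpinh1 were thus all above its 0 h arrays, and the late KO arrays all below theirs. Over the heated arrays it was -0.65 ± 0.13 in KO relative to WT (adjusted p = 0.00286). The late change was 0.63 ± 0.18 in WT (adjusted p = 0.0465, lost without any 1 of 15 arrays) and -0.28 ± 0.18 in KO (adjusted p = 0.361). The difference between these responses, -0.91, was not called (adjusted p = 0.331). The gene's 5 probes disagreed in sign, at -0.73 to 2.18 at 0 h and -1.11 to 0.46 in heated cells (KO minus WT). In late WT they gave -0.03 to 2.26, and with 1 probe per gene the change was 0.39 (adjusted p = 0.314).

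Of 32 other matrix glycoproteins and proteoglycans, 7 were higher and 3 lower in KO at 0 h, and 7 and 4 in heated cells. Postn, a matricellular protein of connective tissue, was 3.40 ± 0.22 higher at 0 h and 2.85 ± 0.14 in heated cells. Eln, the elastic fibre protein, was 2.31 ± 0.23 and 1.78 ± 0.16 higher. Among 19 genes of TGF-beta signalling, which drives matrix synthesis, 1 was higher at 0 h, and 6 were higher and 2 lower in heated cells. Its receptor gene Tgfbr2 was higher in both, at 1.22 and 1.10. Of 20 genes of integrin-linked adhesion, none was called at 0 h, and 1 was higher and 3 lower in heated cells, among them Fermt2, an activator of integrins, at -0.93 ± 0.16 (adjusted p = 0.00103). Of 17 genes of the plasminogen and cathepsin systems, 2 were higher at 0 h, and 2 were higher and 3 lower in heated cells. Reck, a membrane-anchored inhibitor of metalloproteinases, was 1.31 and 0.67 higher, and Plaur, the receptor that focuses plasminogen activation, was at -1.05 in heated cells. The counts of these lists are descriptions, beside 6.64% and 10.3% of all genes.

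In the first 2 h of the heat shock series, limma called no matrix gene. Of the 90 genes, 0 passed in WT early (0.5, 1 and 2 h against 0 h), beside 0.0376% of all genes, and 0 in KO early, beside 0%. At an unadjusted p under 0.05 there were 5 in WT (11.3% of all genes) and 5 in KO (7.46% of all genes).

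After 3 to 8 h a few matrix genes changed, most of them downward. In WT late 3 of 90 were called (3.33%), beside 7.27% of all genes. Of these 1 was higher and 2 were lower, beside 3.60% and 3.67% of all genes. In KO late 10 of 90 were called (11.1%), beside 10.7% of all genes, 3 higher and 7 lower, beside 3.86% and 6.80%. So the share was below the background in WT and near it in KO. The medians over the 90 genes were -0.06 in WT and -0.05 in KO, and -0.02 in both over all genes. Thbs1 and Col8a1 were called in both genotypes, each lower.

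Thbs1, a matricellular protein that binds integrins and activates TGF-beta, stayed near its 0 h level for 2 h and then dropped. At 3, 4, 6 and 8 h it stood at -0.38, -0.93, -0.92 and -1.15 relative to the 0 h mean in WT, and at -0.52, -0.71, -0.72 and -0.58 in KO. The late change was -0.85 ± 0.17 in WT (adjusted p = 0.00737) and -0.63 ± 0.17 in KO (adjusted p = 0.021). All 4 late arrays lay below the 0 h mean in each genotype, and the responses differed by 0.21 ± 0.24 (adjusted p = 0.852). The fall was carried by 1 of its 2 probes, at -1.61 in WT and -1.47 in KO, while the other gave -0.08 and 0.21. Fitted to the contrasted arrays alone, the WT call was lost (adjusted p = 0.108). The KO call was lost without KO at 6 h (adjusted p = 0.0596) or without KO replicate 1 (0.102) or 2 (0.0635) at 0 h.

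Col8a1 fell from its different starting levels in both lines. Relative to the own 0 h mean it was at -0.41, -1.05, -0.69 and -1.06 in WT and at -1.42, -0.85, -1.14 and -1.17 in KO at 3, 4, 6 and 8 h. The change was -0.80 ± 0.19 in WT (adjusted p = 0.0187) and -1.14 ± 0.19 in KO (adjusted p = 0.00119), and the responses differed by -0.34 ± 0.27 (adjusted p = 0.776). The KO call was kept throughout, whereas the WT call was lost without the WT array at 8 h (adjusted p = 0.0577) or without replicate 1 (0.053) or 3 (0.0508) at 0 h. It was also lost with quantile scaling (-0.64, adjusted p = 0.0513) and with scaling of array width (-0.44, adjusted p = 0.177). Col22a1, a FACIT collagen of tissue junctions, rose by 0.67 ± 0.19 in WT (adjusted p = 0.0436). It stood at 0.67, 0.40, 0.70 and 0.91 in WT, and it lost the call without any 1 of 10 arrays (adjusted p up to 0.135).

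**Figure D4:**
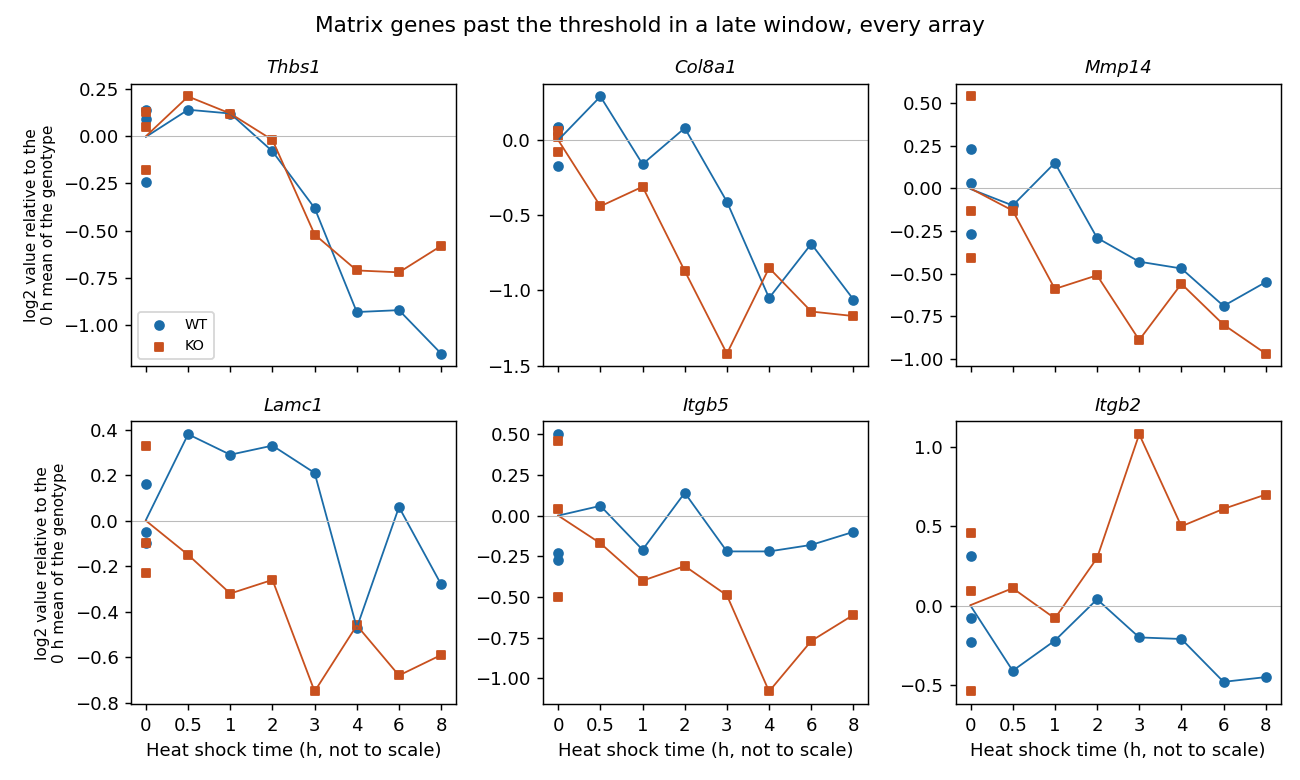
Value relative to the mean of the 3 arrays at 0 h of the same genotype (log2) for 6 genes, against time on an axis not drawn to scale. Thbs1, Col8a1 and Mmp14 lie below 0 from 3 h on in WT and KO, Lamc1 and Itgb5 lie below 0 in KO at every heated time, and Itgb2 lies above 0 in KO at 3 to 8 h.

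The other calls in KO late rested on few arrays. Mmp14, measured by 1 probe, fell by 0.81 ± 0.20 (adjusted p = 0.0172), to -0.89, -0.56, -0.80 and -0.97 at 3, 4, 6 and 8 h, but without KO replicate 3 at 0 h, which stood at 1.18, the change was -0.54 (adjusted p = 0.108), and without KO at 8 h the call was also lost (adjusted p = 0.0544). In WT it stood at -0.43, -0.47, -0.69 and -0.55 at the same times, and its late WT arrays all lay below its WT arrays at 0 h. That change of -0.54 was not called (adjusted p = 0.121), and the responses differed by -0.27 ± 0.29 (adjusted p = 0.844). Lamc1 fell by 0.62 ± 0.17 (adjusted p = 0.0254), Col1a2 by 0.59 ± 0.17 (adjusted p = 0.0293) and Col11a1 by 0.66 ± 0.17 (adjusted p = 0.0186). Without KO replicate 1 at 0 h these stood at adjusted p of 0.162, 0.174 and 0.0846, and each was lost without 3 or more other arrays of KO.

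Itgb5, the beta chain of a vitronectin receptor, fell by 0.74 ± 0.22 in KO late (adjusted p = 0.0386), with arrays at -0.49, -1.08, -0.77 and -0.61. In WT it stood at -0.22, -0.22, -0.18 and -0.10 at the same times. Without KO replicate 3 at 0 h the change in KO was -0.51 (adjusted p = 0.202). Itgb2 rose by 0.72 ± 0.22 in KO (adjusted p = 0.0395), and without KO replicate 1 at 0 h, at -0.69, its rise was 0.45 (adjusted p = 0.25). Lama5, a chain of adult basement membranes, rose by 0.52 ± 0.15 (adjusted p = 0.0356), on probes at 1.04 and 0.00, so that with 1 probe per gene it was 1.04 (adjusted p = 0.0348). Itgb1bp2, a muscle protein also called melusin, rose by 0.72 ± 0.21 (adjusted p = 0.0325), on probes at 0.29 and 1.36. Lama5 was lost without any 1 of 6 arrays (adjusted p up to 0.128), and Itgb1bp2 without any 1 of 6, at 0.30 (adjusted p = 0.445) without KO replicate 2. Of the 10 calls in KO late, 1, Col8a1, was kept with any single array left out, and 3, Col8a1, Thbs1 and Col11a1, under all alternative settings.

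Whether heat acted on matrix genes differently in the 2 genotypes was tested directly. With limma, 0 of 90 genes were called for the early response, beside 0% of all genes, and 0 of 90 for the late response, beside 0.0941% of all genes. At an unadjusted p under 0.05 there were 5 and 8 of the 90, beside 8.37% and 8.72% of all genes. The smallest adjusted p of the late response was that of Col6a2, at -1.25 ± 0.32 (0.234), followed by Itgb2 at 1.06 ± 0.31 (0.343) and Timp4 at -1.01 ± 0.37 (0.472). A gene called in the late window of 1 genotype alone is therefore not shown to respond differently in the other.

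Heat shock elements, the inverted repeats bound by HSF1, were looked for in the 250 bases before each RefSeq start, which was given for 58 of the 90 genes. The letters searched were TTCNNGAA and GAANNTTC, each its own reverse complement, and the longer triplets of 3 alternating units, which contain them. A pair was found before 3 of the 58 genes (5.17%), beside 14.5% of all 27025 genes of the table, and a triplet before 0, beside 0.514%. TGANTCA was found before 6 of the 58 (10.3%), beside 7.82% of all genes. The window of Serpinh1, the known heat shock gene named above, held no pair either. A window without a pair therefore does not show that a gene lacks an element elsewhere. Of the 32 genes called in any comparison 20 had a window. Of these, 1 held a pair, Itgb5, and none held a triplet. The Itgb5 window (chr16:33829415-33829664, GRCm38.p6, plus strand) is shown with that pair in capitals, 155 to 148 bases before the start.
Itgb5 (chr16:33829415-33829664): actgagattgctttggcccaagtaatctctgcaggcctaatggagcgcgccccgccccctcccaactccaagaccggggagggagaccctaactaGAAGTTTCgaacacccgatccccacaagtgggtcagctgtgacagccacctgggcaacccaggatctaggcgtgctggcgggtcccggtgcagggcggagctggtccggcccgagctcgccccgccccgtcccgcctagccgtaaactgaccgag
The match describes the sequence only, and Itgb5 was not called in WT early or WT late.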

How the data were processed

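Per the labels, Cy5 of each array held the sample and Cy3 a common pool. The deposited values, made by the authors, are log ratios, 1 per probe and array, and were read as log2. Their base, background correction, spot filter and normalization are not given in the sources used here. Base 10 was excluded, since 16-bit signals give log10 ratios of at most 4.82 and values reached 10.2. Of 42624 probes, 21701 list 1 gene in the platform annotation. Gene identifiers of all 93 matrix genes were found in RefSeq (GRCm38.p6).

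Each array was centred on its median, and raw medians ran from -0.53 to -0.18. Probes with at least 2 values in each of 6 groups (WT and KO at 0 h, early and late, n = 3, 3 and 4) were kept, which gave 180 of 189 probes of the matrix genes. Each probe was taken relative to its mean over the arrays, and probes of a gene were averaged. With limma 3.58.1 in R 4.3.3 (lmFit, eBayes, prior degrees of freedom 3.36), 8 contrasts were fitted to all 20 arrays, two-sided, with Benjamini-Hochberg adjustment over 10625 genes. Heated times were measured once, so the spread of a window includes change over time. The fit was tested on simulated data. Named genes were those past the threshold, those of smallest p per family and comparison, Serpinh1, and up to 4 genes per other list. The matrix genes, the lists and the tests were chosen with earlier results of these data known. Alternatives were other centring and scaling, probe filters, 1 probe per gene, blocks, only the contrasted arrays, and leaving out each array.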

Additional observations from a re-analysis of the deposited data

Results flagged for a closer look

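Of 64 groups of 4 arrays examined for a single array apart from the rest, 1 was picked out, and chance picks out about 1 in 20. For Timp3 in late WT cells, the array at 3 h stood at -0.29, while the other late WT arrays lay between -0.78 and -0.71. The gap was 0.857 of the whole range, above the critical value of Dixon's test for 4 values. Each late array is a different time, so the 3 h value also stands apart in time.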

How the results depend on the processing

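The counts of called genes that moved by more than 1.5 times were as follows. At 0 h, 3 of 90 genes were called when only the contrasted arrays were fitted. In WT late, the count was 1 with quantile scaling and 0 with only the contrasted arrays. In KO late, it was 16 with complete probes alone, 6 with the replicate block and 5 with the time block. Leaving out 1 array at a time gave 10 to 14 calls at 0 h, 20 to 27 in heated cells, 1 to 5 in WT late, 2 to 14 in KO late and 0 to 0 in both early windows and both response contrasts. Deviations of same-numbered 0 h arrays correlated with r of 0.012, -0.012 and -0.008, which cannot settle whether the replicate numbers pair the arrays. With the replicate block, 10 genes were called at 0 h, 22 in heated cells, 2 in WT late and 6 in KO late. No named call reversed its direction under these alternatives, and changes of sign in results that were not called were not counted. Across genes and settings, 3449 values kept their side of the threshold and 429 lost the call. Of the calls, 3 of 12 at 0 h and 16 of 26 in heated cells were kept under every setting and with every array left out. Without centring, the median of all genes at 0 h was 0.16, and 8 matrix genes were higher and 4 lower. Signal over background was not examined here, and the number of arrays limits the precision.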

Other observations

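A pair of collagen-modifying genes, picked after their values were seen, rose in both genotypes while most collagens did not. Loxl2, an enzyme of the lysyl oxidase family that crosslinks collagen, stood at -0.33, 1.08, 1.59, 2.96, 2.03, 2.82 and 3.35 relative to its 0 h mean in WT from 0.5 to 8 h, and at 0.35, 1.51, 2.09, 2.70, 3.19, 3.84 and 4.30 in KO. Its late change was 2.79 ± 0.48 in WT (adjusted p = 0.00378) and 3.51 ± 0.48 in KO (adjusted p = 4.98e-04). P3h3, of the family that hydroxylates collagen prolines, was at -0.11, 1.16, 1.74, 2.75, 2.35, 2.91 and 3.55 in WT and 0.00, 1.07, 1.55, 1.92, 2.58, 3.14 and 3.58 in KO. Its late change was 2.89 ± 0.44 in WT (adjusted p = 0.00269) and 2.80 ± 0.44 in KO (adjusted p = 9.21e-04). Each gene rested on 1 probe, and both calls were kept with any 1 array left out.

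Other genes of matrix signalling and adhesion also changed late in both genotypes. Smad7, the inhibitor of TGF-beta signalling, rose by 1.40 ± 0.32 in WT (adjusted p = 0.0167) and 1.59 ± 0.32 in KO (adjusted p = 0.00473). Tgfb1i1, a focal adhesion protein, fell by 1.08 ± 0.23 in WT (adjusted p = 0.011) and by 0.97 ± 0.23 in KO (adjusted p = 0.0123). The WT call of Tgfb1i1 was lost when only the contrasted arrays were fitted (adjusted p = 0.0599), and its KO call without KO replicate 3 at 0 h (0.0641). The WT call of Smad7 was lost without WT replicate 3 at 0 h (adjusted p = 0.0573). These genes were likewise picked after their values were seen.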
